A study of Mus musculus with 24 samples.

Results

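Mouse bone marrow-derived macrophages were compared after 3 h with lipopolysaccharide (LPS), the endotoxin of Gram-negative bacteria, and after 3 h without treatment. The comparison uses 8 of the 24 libraries of the series, the 4 that the labels give to LPS at 3 h and the 4 that they give to untreated cells at 3 h. All cells came from wild-type mice of the C57BL/6J strain, so no allele differs between the groups. Bone marrow was differentiated in DMEM with 10% fetal calf serum and 15% medium conditioned by L929 cells, a fibroblast line that secretes the macrophage growth factor M-CSF, and the macrophages were plated on day 6. The cells were left untreated or received LPS at 100 ng/mL. The labels call the control cells untreated, while the deposited counts carry the name Veh for them, and the sources used here name no vehicle. The other 16 libraries, from untreated and LPS-treated cells at 18 h and from cells given the sphingomyelin S14 at 30 µM for 3 h or 18 h, helped to estimate the spread of each gene, and those of untreated and LPS-treated cells at 18 h also entered a comparison of the times. The sources used here give neither the sex nor the age of the mice. The series gives 4 replicates per group without saying whether they came from separate mice, so the p-values measure the spread between these libraries, which may be technical.

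LPS is handed by CD14 to the receptor pair of TLR4 and MD-2 (encoded by Ly96). At the cell surface the adaptor MyD88 recruits IRAK kinases and TRAF6, which activate NF-kB and the MAP kinases and so turn on inflammatory genes within minutes to hours. After uptake of the receptor, the adaptor TRIF (encoded by Ticam1) activates the kinase TBK1 and the factor IRF3, which turn on interferon β. Secreted interferon β acts back on the same cells through its receptor and turns on a second wave of antiviral genes, while newly made inhibitors such as IkBα, A20 and the SOCS proteins dampen the signal.

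NF-kB and interferon-activated factors bind short DNA motifs near gene starts, and 6 promoter windows of genes described further on show both kinds. Each window runs from 250 bases before to 50 bases after the start of the gene in the RefSeq annotation of GRCm38.p6 and is written 5′ to 3′ on the strand of the gene. Capitals mark matches on either strand to the NF-kB site or to the interferon-stimulated response element (ISRE, searched as GAAA, any 2 bases, GAAA). The windows of Cxcl10, Il6, Nfkbia and Cxcl1 hold NF-kB sites, and those of Cxcl10, Isg15 and Ifit1 hold ISREs. They lie at chr5:92348840-92349139 (minus strand), chr5:30012864-30013163 (plus), chr12:55492598-55492897 (minus), chr5:90890995-90891294 (plus), chr4:156200769-156201068 (minus) and chr19:34640639-34640938 (plus).
Cxcl10: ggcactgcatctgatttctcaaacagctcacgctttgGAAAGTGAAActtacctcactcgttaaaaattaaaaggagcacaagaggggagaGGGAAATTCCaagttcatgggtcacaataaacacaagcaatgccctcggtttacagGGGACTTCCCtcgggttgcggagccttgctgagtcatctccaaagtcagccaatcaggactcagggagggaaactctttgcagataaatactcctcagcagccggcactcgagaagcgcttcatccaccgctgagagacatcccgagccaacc
Il6: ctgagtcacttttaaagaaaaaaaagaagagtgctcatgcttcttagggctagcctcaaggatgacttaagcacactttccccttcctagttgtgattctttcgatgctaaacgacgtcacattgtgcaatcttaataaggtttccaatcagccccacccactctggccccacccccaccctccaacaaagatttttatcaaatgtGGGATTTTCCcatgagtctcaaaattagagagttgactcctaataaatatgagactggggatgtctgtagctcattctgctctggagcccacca
Nfkbia: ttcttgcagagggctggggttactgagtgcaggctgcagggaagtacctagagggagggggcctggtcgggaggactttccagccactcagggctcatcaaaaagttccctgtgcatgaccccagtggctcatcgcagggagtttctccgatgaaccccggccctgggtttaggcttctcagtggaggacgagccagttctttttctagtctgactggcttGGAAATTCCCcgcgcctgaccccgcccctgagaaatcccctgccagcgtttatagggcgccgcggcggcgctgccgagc
Cxcl1: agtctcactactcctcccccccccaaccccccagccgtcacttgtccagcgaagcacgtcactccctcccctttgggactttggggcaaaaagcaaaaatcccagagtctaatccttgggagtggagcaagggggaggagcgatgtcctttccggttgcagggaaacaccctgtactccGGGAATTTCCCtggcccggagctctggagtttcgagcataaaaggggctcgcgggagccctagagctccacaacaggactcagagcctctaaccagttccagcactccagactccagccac
Isg15: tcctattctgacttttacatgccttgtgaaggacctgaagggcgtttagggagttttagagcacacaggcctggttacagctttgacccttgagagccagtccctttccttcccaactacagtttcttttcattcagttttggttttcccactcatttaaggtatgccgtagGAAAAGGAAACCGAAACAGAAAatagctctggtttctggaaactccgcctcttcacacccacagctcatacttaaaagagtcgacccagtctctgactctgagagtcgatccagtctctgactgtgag
Ifit1: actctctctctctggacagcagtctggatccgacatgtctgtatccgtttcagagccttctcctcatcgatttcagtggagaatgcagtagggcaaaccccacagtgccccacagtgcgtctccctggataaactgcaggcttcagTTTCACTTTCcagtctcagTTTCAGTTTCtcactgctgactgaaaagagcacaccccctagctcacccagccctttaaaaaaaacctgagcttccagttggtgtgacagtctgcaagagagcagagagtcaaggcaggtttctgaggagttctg

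Counted from the first base of the gene, the ISRE of Cxcl10 ended at base -204 and its NF-kB sites ended at bases -150 and -94. The NF-kB site ended at base -35 in Il6 and at base -20 in Nfkbia, and Cxcl1 held overlapping matches from base -71 to base -61. Isg15 held 3 overlapping ISREs between bases -78 and -57, and Ifit1 held a pair that ended at bases -95 and -76, read on the opposite strand. A match of letters is a description of the window, not evidence that a factor was bound.

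The measured molecules were the 3′ ends of polyadenylated transcripts, counted per gene. The 8 libraries held between 3334182 and 5465764 reads in genes, with 3334182 to 3853600 in the untreated and 4703092 to 5465764 in the LPS libraries. Reads were found for 14792 to 15032 genes per untreated library and for 14365 to 14772 per LPS library. The first principal component held 79.3% of the variance and separated the groups. The second held 4.80%, and LPS library 1 stood at 38.9 on it while the other LPS libraries stood between -24.3 and -3.24. Levels are given in CPM, the usual unit of read counts scaled to the size of the library, and ± marks the SD over 4 libraries. Each gene was tested with the quasi-likelihood F test of edgeR, with Benjamini-Hochberg adjustment over all 11717 tested genes, and a gene was called, and is said to have risen or fallen, at an adjusted p under 0.05.

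With scaling to library size, the early response to LPS reached most of the tested genes. LPS raised 2964 genes (25.3% of those tested) and lowered 3536 (30.2%), together 55.5%. These shares are the background for the counts of each gene list below. With scaling to spike-in RNAs, described further on, a minority of the tested genes was called. There 2341 were higher and 955 lower over all 24 libraries, and 3054 were higher and 1187 lower with the 8 libraries alone. At a fold of 2 or more, 1582 genes rose (13.5%) and 1630 fell (13.9%). The lists of large changes were uneven. At a fold of 8 or more 384 genes rose and 136 fell, at 32 or more 149 rose and 21 fell, and at 64 or more 88 rose and 8 fell. These are fitted folds. They depend on the prior count for tested genes with 0 reads in a group, 29 in untreated and 20 in LPS libraries. The 4 LPS libraries lay all on one side of the 4 untreated ones for 51.5% of the tested genes, among them 2709 that rose and 2952 that fell. A level under 1 CPM in untreated cells and of 10 CPM or more with LPS was measured for 74 genes, and the opposite for 3. The genes that rose at least 2-fold took 10.5 ± 0.143% of the reads in untreated libraries and 40.4 ± 0.445% in LPS libraries. Those that fell at least 2-fold took 5.57 ± 0.0672% and 1.23 ± 0.0303%.

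**Figure D1:**
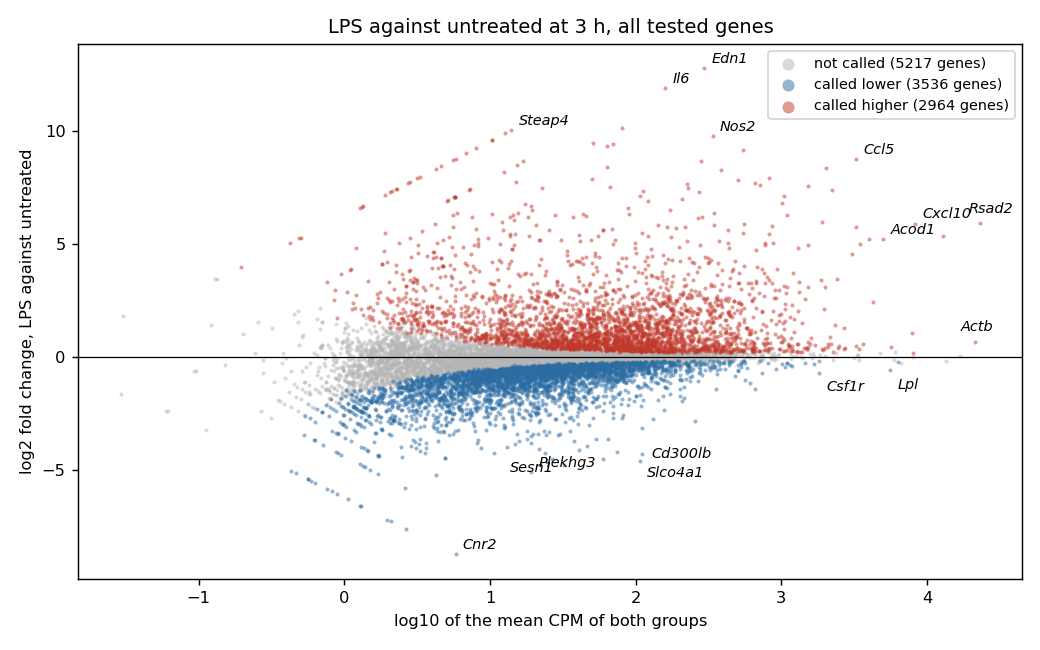
Each point is 1 of the 11717 tested genes, with the log10 of its mean CPM over both groups on the x axis and its log2 fold change, LPS against untreated at 3 h, on the y axis; red genes were called higher (2964), blue genes lower (3536) and grey genes were not called. The upper side reaches further from 0 than the lower side, with Edn1 and Il6 at the top and Cnr2 at the bottom; the straight rows of points at the left are genes with 0 reads in 1 of the groups, whose fitted value depends on the prior count.

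Genes that fell have a limit that applies to every falling group described here. External spike-in RNAs made up 0.0507 ± 0.00763% of the reads of the untreated libraries and 0.0269 ± 0.00627% of those of the LPS libraries (exact permutation test, two-sided p = 0.0286, the smallest that 4 against 4 libraries can give). Scaling the 8 libraries to their spike-in reads instead of to library size moved the median over all tested genes from -0.11 to 0.25, a median shift of 0.34 on the log2 scale. Under that scaling 2811 of the 2964 genes were still called higher, while 1187 of the 3536 were still called lower, 1165 of them among the 1630 that had fallen at least 2-fold. None of the 3536 was called higher. The spike-in reads were few (870 to 2303 per library), and the sources used here do not state how much was added. In a bulk library fewer cells of a type and less RNA per cell cannot be told apart.

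The steepest rises among genes at 10 CPM or more were led by genes for secreted proteins. Edn1 encodes endothelin-1, a peptide that contracts vessels. Its level was 0.235, 0, 0 and 0 CPM in the 4 untreated libraries and 596, 607, 572 and 587 CPM in the 4 LPS libraries. The untreated group held 1 read in all against 8998 in the LPS group, a ratio of 10112-fold (95% counting interval 1814 to 399446) (edgeR adjusted p = 1.3e-32). Il6, the cytokine that drives the acute-phase response, was at 0, 0.225, 0 and 0 CPM and at 369.7, 309, 303 and 294 CPM, a ratio of 5455-fold (95% counting interval 979 to 215503). Both genes were near 0 in all untreated libraries and far above them in all LPS libraries. Il1a, the alarmin interleukin 1α, rose from 0.120 ± 0.139 to 161 ± 19.1 CPM, a ratio of 1383-fold (95% counting interval 383 to 11429.6). The iron reductase gene Steap4 had no read in untreated cells and 28.9, 30.6, 25.5 and 26.7 CPM with LPS, which is at least 159-fold above the floor of 3 reads over the group. Long pentraxin 3 (Ptx3), a soluble pattern receptor, had no untreated read either and was at 29.8, 33.4, 24.0 and 14.8 CPM with LPS, at least 145-fold above the floor. Follistatin (Fst), which binds activins, rose at least 118-fold above its floor to 20.8 ± 3.71 CPM. Kalrn, an exchange factor for small GTPases, and the chemokine Ccl17 also went from 0 reads to 16.0 ± 3.64 and 13.7 ± 2.43 CPM. The levels of LPS library 4 were the lowest of the group for Ptx3, Fst and Kalrn.

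**Figure D2:**
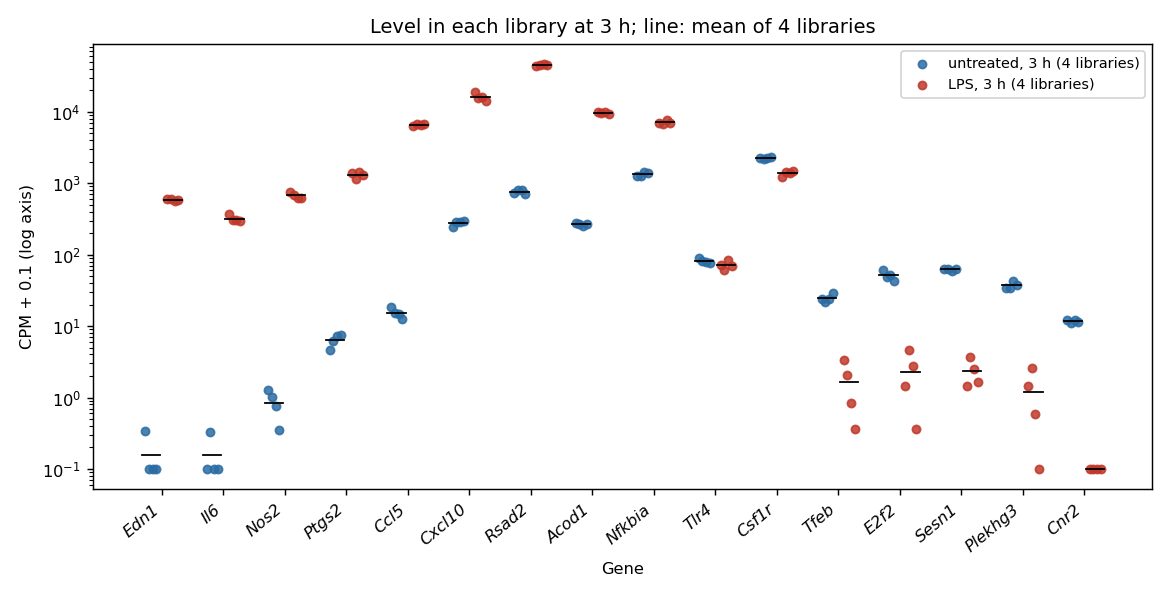
The y axis gives CPM plus 0.1 on a log scale for 16 genes, with 1 point per library, blue for untreated and red for LPS, and a line at the mean of 4 libraries. From Edn1 to Nfkbia all red points lie above all blue ones, the points of Tlr4 overlap, and from Csf1r to Cnr2 all red points lie below all blue ones.

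Interleukins and their secreted antagonists rose as a group. Of 14 tested members 13 rose and 1 fell, with a median log2 fold change of 5.69 (5.01 with genes at 0 reads set to their bound), against -0.11 over all tested genes. Il1b, the main pyrogenic interleukin, was at 13.0, 9.23, 11.9 and 15.6 CPM in untreated and at 3789, 3406, 4619 and 4226 CPM in LPS libraries (log2 fold change 8.34, SE 0.43, edgeR adjusted p = 1.3e-12). Il12b, the shared subunit of interleukins 12 and 23, rose from 0.113 ± 0.225 to 101 ± 14.7 CPM, a ratio of 864-fold (95% counting interval 239 to 7138). Il27 and Il19 rose from 2.21 ± 0.697 to 447 ± 34.3 CPM and from 0.354 ± 0.408 to 30.9 ± 4.14 CPM. Restraining members rose as well. Il10, which shuts down macrophage cytokine output, was at 4.003, 9.23, 4.62 and 5.62 CPM untreated and at 185, 197, 193 and 191 CPM with LPS (log2 fold change 5.02, SE 0.22, edgeR adjusted p = 1.8e-20). Il1rn, which encodes the antagonist of the interleukin 1 receptor, rose from 89.1 ± 4.86 to 2487 ± 214 CPM (27.9-fold). The T cell attractant Il16 was the member that fell, from 9.62 ± 3.08 to 0.848 ± 0.716 CPM (log2 fold change -3.46). Il16, and other members outside the naming rule such as Tnf, Isg15, Cx3cr1, Traf3 and Spi1, were named after their values were seen.

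TNF-family ligands rose less uniformly. Of 9 tested, 6 rose, 1 fell and 2 were not called, with a median of 2.72. Tnfsf15, known as TL1A, rose from 3.73 ± 1.77 to 338 ± 23.5 CPM (log2 fold change 6.49, SE 0.21, edgeR adjusted p = 6.0e-24), and the death ligand Tnfsf10 (TRAIL) rose from 4.87 ± 2.62 to 281 ± 22.6 CPM. Tnfsf4 and Tnfsf8, ligands of the receptors OX40 and CD30 on T cells, ended at 10.9 ± 1.47 and 16.1 ± 1.26 CPM. Tnf itself, the central inflammatory cytokine, was already at 171, 153, 196 and 180.3 CPM in untreated libraries and reached 789, 884, 874 and 968 CPM with LPS (log2 fold change 2.33, SE 0.09, edgeR adjusted p = 7.5e-25). Its libraries did not overlap between the groups, but its change was smaller than that of 5 other ligands of the list.

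Chemokines rose in nearly all tested members. Of 24 tested, 20 rose, 4 were not called and none fell, with a median of 4.86. Cxcl10, which attracts activated T cells through CXCR3, was at 241, 285, 287 and 294 CPM in the untreated and at 19007, 15601, 16292 and 14312 CPM in the LPS libraries (log2 fold change 5.88, SE 0.21, edgeR adjusted p = 1.2e-15). The other ligands of the same receptor moved with it, Cxcl9 from 1.85 ± 1.21 to 1084 ± 266 CPM (573-fold) and Cxcl11 from 2.40 ± 1.17 to 763 ± 64.4 CPM (309-fold). Ccl5, which attracts T cells and monocytes, was at 18.6, 15.3, 14.7 and 12.5 CPM and at 6280.3, 6698, 6445 and 6664 CPM (log2 fold change 8.73, SE 0.13, edgeR adjusted p = 2.0e-39). Ccl3 and Ccl4, the macrophage inflammatory proteins 1α and 1β, started higher and rose 31.95-fold and 36.5-fold, to 6711 ± 372 and 7812 ± 634 CPM. The monocyte attractants Ccl2, Ccl7, Ccl12 and Ccl8, neighbours on chromosome 11, reached 2962 ± 224, 2170.3 ± 82.0, 679 ± 32.04 and 40.9 ± 7.64 CPM, from 31.1-fold for Ccl2 to 80.8-fold for Ccl12. The neutrophil attractants Cxcl1 and Cxcl2 changed less, from 10.3 ± 2.48 to 53.8 ± 11.8 CPM and from 158 ± 22.4 to 530.5 ± 82.8 CPM, with log2 fold changes of 2.39 and 1.75. Their relative Cxcl3, named after its values were seen, rose from 0.995 to 27.5 CPM (log2 fold change 4.76), close to the median of the list. Ccl6 was not called (579 ± 41.7 and 526 ± 80.0 CPM).

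Growth factors moved both ways, with 5 of 19 higher, 7 lower and a median of 0.06, near that of all genes. The shares among all tested genes were 25.3% higher and 30.2% lower. Besides Edn1 and Fst, the rises were those of Inhba, the activin A subunit that follistatin binds (from 0.673 ± 0.708 to 22.8 ± 5.07 CPM), of Csf1, which encodes M-CSF (from 7.85 ± 0.722 to 163 ± 9.73 CPM, 20.6-fold), and of Hbegf. Gdf15 and Vegfa were the steepest falls, from 85.6 ± 3.25 to 10.3 ± 3.08 CPM and from 32.5 ± 5.01 to 6.13 ± 0.862 CPM. The interferon genes were almost silent. Of 18 listed, 16 had no read in any of the 8 libraries and 1 could be tested. That was Ifnb1, which had no read in untreated cells and 9.74, 20.3, 6.80 and 9.87 CPM with LPS, at least 65.6-fold above the floor (edgeR adjusted p = 3.2e-08). LPS library 2 held the highest value and library 3 the lowest.

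The receptor of LPS itself was not called. Tlr4 was at 89.2, 80.6, 77.9 and 75.8 CPM in untreated and at 72.5, 60.7, 84.0 and 69.8 CPM in LPS libraries, which overlap (log2 fold change -0.17, SE 0.10, edgeR adjusted p = 0.16). Without LPS library 3 the log2 fold change was -0.26 and just passed (edgeR adjusted p = 0.049), and with spike-in scaling of the 8 libraries it was 0.18 (edgeR adjusted p = 0.62). Of 28 tested Toll-like receptors, adaptors and kinases 16 rose and 5 fell (2 of these also with spike-in scaling), with a median of 0.58. The receptor for double-stranded RNA, Tlr3, rose from 14.9 ± 0.498 to 217 ± 15.5 CPM (log2 fold change 3.86, SE 0.16, edgeR adjusted p = 3.6e-24). The adaptor Myd88 rose from 164 ± 22.5 to 750.0 ± 34.0 CPM, and the LPS carrier Cd14 rose from 1534 ± 189.6 to 2770.1 ± 152 CPM. The kinases Irak2 and Ikbke rose 3.70-fold and 3.16-fold. Ticam1, which encodes TRIF, was not called (27.6 ± 0.413 and 24.5 ± 4.22 CPM). Traf3, which links TRIF to TBK1, fell from 34.1 ± 4.45 to 13.3 ± 2.30 CPM, and Tlr13, a receptor for bacterial ribosomal RNA, fell from 116 ± 3.81 to 37.2 ± 5.88 CPM. Both falls were also called with spike-in scaling.

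All 11 tested NF-kB subunits and IkB proteins rose, with a median of 2.08 and 8 of them at least 2-fold. Nfkbiz, an inducible IkB protein needed for secondary genes such as Il6, rose from 52.2 ± 3.63 to 733 ± 17.6 CPM (log2 fold change 3.81, SE 0.18, edgeR adjusted p = 1.0e-14). Nfkbia, which encodes the inhibitor IkBα and whose window holds an NF-kB site just before the start, was at 1243, 1257, 1424 and 1406 CPM and at 6996, 6709.5, 7698 and 6997 CPM (log2 fold change 2.41, SE 0.08, edgeR adjusted p = 3.2e-28). Every LPS library held more than any untreated one. Bcl3 and the subunit Rel rose 6.81-fold and 6.62-fold. Rela, the subunit that is activated from a ready-made pool, rose least of the subunits besides Relb, from 126 ± 10.2 to 239 ± 14.5 CPM.

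Immediate early and bZIP factors split. Of 32 tested, 17 rose and 7 fell, with a median of 1.03. Batf2 and Batf, interferon-inducible partners of Jun, rose from 5.99 ± 1.19 to 322 ± 26.8 CPM and from 4.62 ± 1.68 to 101 ± 9.91 CPM, and Cebpd, a C/EBP factor that sustains the response to LPS, rose from 72.6 ± 6.19 to 816 ± 38.8 CPM (log2 fold change 3.49, SE 0.19, edgeR adjusted p = 4.3e-13). Junb, Egr1 and Atf3 rose 3.94-fold, 3.90-fold and 2.79-fold. Fos, which peaks within the first hour in many cells, was lower with LPS, from 107 ± 12.4 to 57.1 ± 9.52 CPM (log2 fold change -0.90, SE 0.16, edgeR adjusted p = 9.1e-06); with spike-in scaling its log2 fold change was -0.55 and not called (edgeR adjusted p = 0.079). Myc and Klf2 fell from 7.16 ± 2.47 to 1.36 ± 0.977 CPM and from 58.3 ± 5.25 to 26.2 ± 5.09 CPM.

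Antiviral genes that interferon turns on rose without exception. All 39 tested antiviral genes rose, 38 of them at least 2-fold, with a median of 2.92. Rsad2 encodes viperin, which makes a chain-terminating nucleotide. It was at 721, 815, 791 and 702 CPM in untreated and 44014, 45042, 46299 and 44572 CPM in LPS libraries (log2 fold change 5.89, SE 0.19, edgeR adjusted p = 3.1e-17), the largest gain in CPM of any tested gene. Its neighbour Cmpk2, the kinase that supplies the substrate of viperin, rose from 120.3 ± 13.1 to 6354 ± 349.6 CPM (52.8-fold). Ifit1, an RNA cap sensor whose window holds a pair of ISREs, was at 589.8, 692, 616 and 617 CPM and at 28857, 23186, 26332 and 21884 CPM (log2 fold change 5.32, SE 0.33, edgeR adjusted p = 2.2e-11). Isg15, the ubiquitin-like modifier, rose from 254 ± 17.9 to 5878 ± 661 CPM (23.1-fold). Ifit2, Ifit3 and Ifit1bl1 rose 33.1-fold, 12.9-fold and 58.8-fold. The 2′-5′ oligoadenylate synthetases changed less, with Oas1a, Oas2 and Oas3 between 2.24-fold and 3.21-fold higher. Ifitm3, an entry inhibitor that was abundant without treatment, rose least (from 2691 ± 150.0 to 3752 ± 372 CPM).

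Guanylate-binding proteins and immunity-related GTPases, which attack vacuoles that hold microbes, rose in all 15 tested members, with a median of 4.80. Gbp5 was at 17.0, 17.8, 17.2 and 12.8 CPM untreated and at 3598, 2968, 3064 and 2521 CPM with LPS (log2 fold change 7.55, SE 0.31, edgeR adjusted p = 2.1e-14). Iigp1 rose from 15.0 ± 1.52 to 2059.9 ± 136 CPM (137-fold), and Gbp2, Gbp3 and Gbp7 rose 54.1-fold, 47.9-fold and 26.2-fold. Tgtp1 and Tgtp2, as well as Gbp6 and its near copies, are nearly identical genes whose reads the counting could split, so their separate values are uncertain. All 19 tested Schlafen and p200 genes rose too, with a median of 3.37. The p200 members Ifi205 and Ifi209 rose from 2.58 ± 0.617 to 452 ± 35.3 CPM and from 49.1 ± 10.6 to 914 ± 67.4 CPM, and Slfn4 and Slfn1 rose 35.0-fold and 17.1-fold. Aim2, a sensor of cytosolic DNA, rose from 65.6 ± 8.82 to 532 ± 39.5 CPM. Members of this family also resemble each other in sequence.

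The factors that carry the interferon signal rose with their targets. Of 14 IRF and STAT genes 10 rose, all at least 2-fold, and 2 fell, with a median of 1.64. Irf7, which amplifies interferon production, rose from 142 ± 13.2 to 1503 ± 62.4 CPM (log2 fold change 3.41, SE 0.12, edgeR adjusted p = 2.6e-22), and Irf1 rose from 128 ± 11.1 to 1211 ± 65.1 CPM. Stat2 rose 4.25-fold, and Stat5a rose 14.0-fold. Irf3 and Stat6 were the falls, from 47.7 ± 5.83 to 36.1 ± 4.41 CPM and from 108 ± 10.1 to 58.7 ± 7.17 CPM. With spike-in scaling neither was called, at log2 fold changes of -0.03 and -0.53 (edgeR adjusted p = 0.94 and 0.092).

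Feedback inhibitors rose beside the signals that they limit. Of 24 SOCS, A20 and related inhibitors 18 rose and 3 fell, with a median of 1.87. Socs3, which blocks signalling through the interleukin 6 receptor chain, was at 15.1, 17.1, 19.6 and 20.7 CPM untreated and at 2054, 1872, 2091 and 1973 CPM with LPS (log2 fold change 6.78, SE 0.22, edgeR adjusted p = 7.8e-17). Socs1, which blocks interferon receptors, rose from 7.54 ± 1.52 to 529.5 ± 32.4 CPM (70.1-fold), and Cish rose from 0.995 ± 0.406 to 49.4 ± 7.20 CPM. Tnfaip3, which encodes the ubiquitin-editing enzyme A20, rose from 24.96 ± 2.61 to 459 ± 37.8 CPM (log2 fold change 4.20, SE 0.14, edgeR adjusted p = 7.4e-27). The single-immunoglobulin receptor Sigirr fell from 2.20 ± 1.85 to 0.191 ± 0.236 CPM. The list of MAP kinase phosphatases and Sprouty-family inhibitors divided, with 5 of 14 higher and 6 lower, 5 of them also with spike-in scaling. Among all tested genes 25.3% rose and 30.2% fell. The falls were those of the phosphatases Dusp3, Dusp4, Dusp6, Dusp7 and Dusp8 and of Spred2, and the rises included Spry2 and Spred1. Dusp2, Dusp16 and Dusp1 rose 40.9-fold, 6.72-fold and 3.79-fold. Dusp4, which acts on the same kinases in the nucleus, fell, from 28.5, 31.3, 33.2 and 37.5 CPM to 4.06, 3.62, 3.88 and 1.56 CPM (log2 fold change -3.30, SE 0.25, edgeR adjusted p = 1.9e-15). Factors that act on mRNA decay divided as well, with 8 of 20 higher and 8 lower, of which 2 remained lower with spike-in scaling. Zfp36 (tristetraprolin) rose from 163 ± 22.5 to 1547 ± 113 CPM and Zc3h12a (regnase-1) rose from 34.8 ± 3.04 to 169 ± 10.6 CPM, while the relatives of Zfp36 fell, Zfp36l1 from 67.3 ± 9.68 to 13.8 ± 5.60 CPM and Zfp36l2 from 10.2 ± 3.51 to 0.930 ± 0.740 CPM.

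Regulators of cell death rose more often than they fell, with 23 of 36 higher, 6 lower and a median of 0.84. The survival genes of the Bcl2a1 family were close to absent in untreated cells, and Bcl2a1b ended at 89.7 ± 14.7 CPM. Bcl2a1a, Bcl2a1b and Bcl2a1d are nearly identical copies and their reads cannot be separated with certainty. Cflar, which holds back caspase 8, rose from 117 ± 12.7 to 942 ± 27.3 CPM (log2 fold change 3.01, SE 0.09, edgeR adjusted p = 2.1e-28). Casp4, the mouse sensor of cytosolic LPS also called caspase 11, rose from 51.8 ± 4.94 to 370.1 ± 34.1 CPM, and Casp1, which cleaves pro-interleukin 1β, rose from 161 ± 9.72 to 867 ± 50.02 CPM. Tnfrsf1b, a receptor of TNF, rose 5.55-fold. Bmf, a killer of the BCL2 family, fell from 3.01 ± 1.34 to 0.268 ± 0.383 CPM, and Casp9 fell from 23.7 ± 3.73 to 4.65 ± 3.15 CPM.

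**Figure D3:**
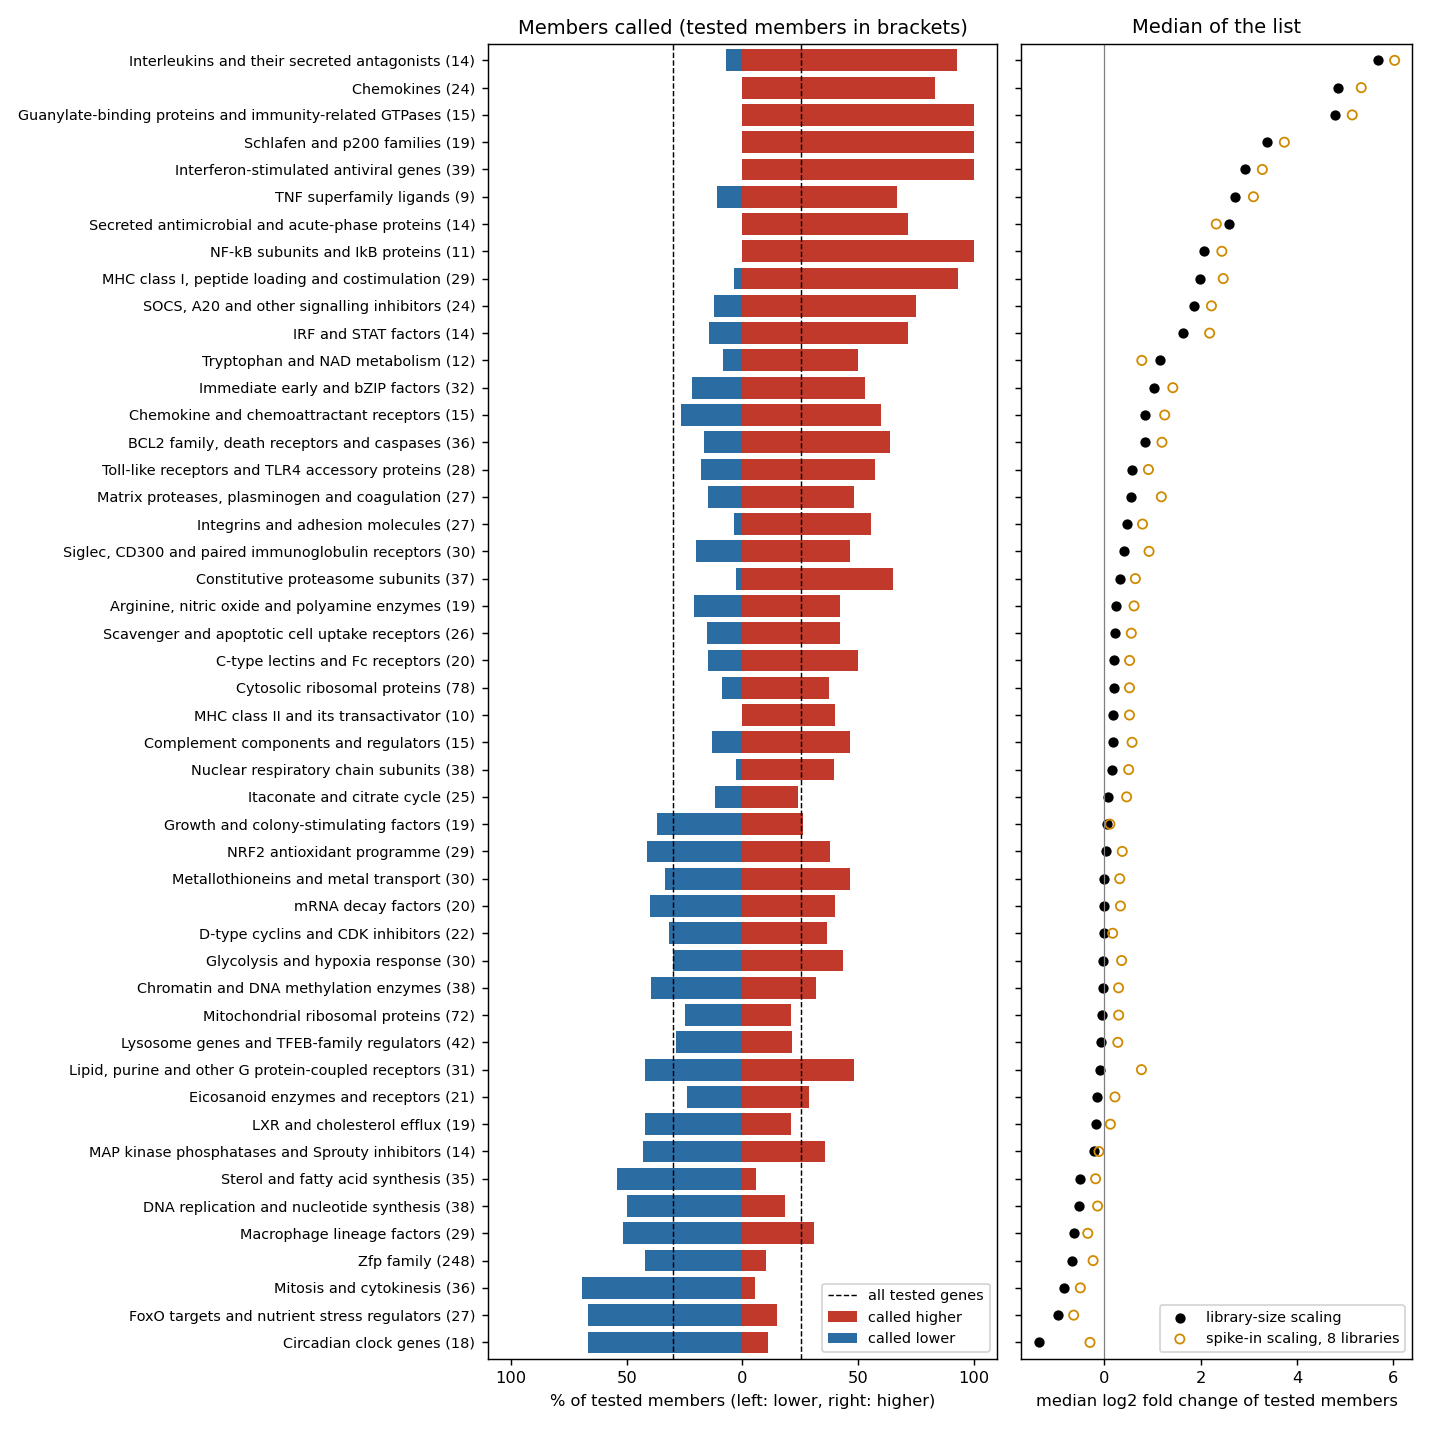
For each gene list with at least 5 tested members (their number in brackets), the left panel gives the percentage of tested members called higher (red, to the right) and lower (blue, to the left), with dashed lines at 25.3% and 30.2% for all tested genes; the right panel gives the median log2 fold change with library-size scaling (black) and with spike-in scaling of the 8 libraries (open circles). Interleukins, chemokines and interferon-induced families stand at the top and mitosis, FoxO target and clock genes at the bottom, and spike-in scaling moves most medians to the right.

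Class I antigen presentation rose almost throughout. Of 29 genes of MHC class I, peptide loading and costimulation 27 rose and 1 fell, with a median of 1.99. Cd274, which encodes the T cell inhibitor PD-L1, was at 13.9, 9.68, 9.24 and 14.8 CPM and at 668, 739, 641 and 665 CPM (log2 fold change 5.84, SE 0.21, edgeR adjusted p = 5.4e-17), and the costimulator Cd40 rose from 37.1 ± 3.68 to 1598 ± 81.6 CPM (43.0-fold). Nlrc5, the transactivator of class I genes, rose from 18.8 ± 1.12 to 234 ± 13.9 CPM. The peptide pump subunits Tap1 and Tap2 rose 9.61-fold and 6.09-fold, and the immunoproteasome subunits Psmb8, Psmb9 and Psmb10 rose 3.35-fold, 4.74-fold and 5.07-fold. B2m, the common light chain, rose from 5127 ± 456 to 10665 ± 534 CPM. Class II genes changed less. Of 10 tested, 4 rose, none at least 2-fold, with a median of 0.19. Cd74 rose from 159 ± 15.0 to 297 ± 27.1 CPM, and the transactivator Ciita was not called (4.57 ± 1.09 and 3.47 ± 2.09 CPM).

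Single enzymes that make small effector molecules rose steeply, while other members of their pathways moved both ways. Nos2, the inducible nitric oxide synthase, was at 1.18, 0.901, 0.660 and 0.255 CPM in untreated and at 757, 683, 625 and 629.9 CPM in LPS libraries (log2 fold change 9.75, SE 0.26, edgeR adjusted p = 6.4e-23). Around it, the arginine importer Slc7a2 rose from 4.20 ± 0.997 to 101 ± 16.8 CPM, the cofactor enzyme Gch1 rose from 47.8 ± 2.46 to 288 ± 18.1 CPM, and Ass1, which recycles citrulline, rose from 17.8 ± 2.09 to 61.2 ± 8.76 CPM. In all, 8 of 19 arginine and polyamine genes rose and 4 fell, with a median of 0.24. Arg1, the arginase of alternatively activated macrophages, had 0.119 ± 0.138 CPM untreated and no read with LPS, and was not called. Acod1, which makes itaconate from a citrate cycle intermediate, was at 278, 265, 255 and 271 CPM and at 9917, 9586, 10077 and 9308 CPM (log2 fold change 5.19, SE 0.13, edgeR adjusted p = 1.0e-24). Of the other 24 tested genes of that list 5 rose, none at least 2-fold, and 3 fell. Idh1 fell most (from 236 ± 9.70 to 90.2 ± 6.23 CPM). In the eicosanoid list 6 of 21 rose and 5 fell, beside 25.3% and 30.2% of all tested genes. Ptgs2, the inducible cyclooxygenase, was at 4.47, 6.08, 7.26 and 7.41 CPM and at 1377, 1132, 1447 and 1321 CPM (log2 fold change 7.70, SE 0.17, edgeR adjusted p = 1.5e-27), and the prostaglandin E synthase Ptges rose from 2.50 ± 1.22 to 29.8 ± 6.37 CPM. Kmo and Nampt, of tryptophan and NAD metabolism, rose 19.3-fold and 5.61-fold.

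Glycolytic and hypoxia genes moved both ways. Of 30 tested, 13 rose and 9 fell, beside 25.3% and 30.2% of all tested genes, with a median of -0.02. Pfkfb3, which makes the activator of phosphofructokinase, rose from 15.6 ± 2.69 to 317 ± 49.5 CPM (log2 fold change 4.34, SE 0.15, edgeR adjusted p = 3.7e-25), the hexokinase Hk2 rose from 38.9 ± 3.38 to 296 ± 38.1 CPM, and Hif1a, the hypoxia factor, rose from 109 ± 9.56 to 245 ± 20.2 CPM. Pfkfb4, another isoform of the same enzyme, fell from 21.9 ± 2.13 to 6.496 ± 1.42 CPM. Of the 9 falls 1 was also called with spike-in scaling. Pkm was 1 of the falls that were lost (from 1864 ± 63.1 to 1472 ± 80.6 CPM; log2 fold change -0.00 with spike-in scaling, edgeR adjusted p = 0.99). Gapdh, Eno1 and Pgk1 were measured at levels under 40 CPM; they have many processed copies in the genome, so their values are uncertain. In the NRF2 list 11 of 29 rose and 12 fell, 3 of them also with spike-in scaling. Sod2, the mitochondrial superoxide dismutase, rose from 254 ± 26.8 to 1524 ± 80.9 CPM, and the cystine importer Slc7a11 rose from 5.99 ± 1.31 to 34.4 ± 7.90 CPM, while Gclc, the first enzyme of glutathione synthesis, fell from 36.7 ± 4.69 to 11.9 ± 3.84 CPM.

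Genes that handle metals gave some of the largest rises. Of 30 tested, 14 rose and 10 fell (2 with spike-in scaling). The metallothioneins Mt2 and Mt1, which bind zinc, rose from 59.8 ± 6.68 to 3761 ± 395 CPM (log2 fold change 5.98, SE 0.12, edgeR adjusted p = 5.9e-32) and from 403 ± 16.5 to 1946 ± 233 CPM. Lcn2, which sequesters bacterial siderophores, rose from 0.412 ± 0.824 to 99.8 ± 27.9 CPM (229.8-fold), and Hamp, the iron hormone hepcidin, rose to 11.0 ± 2.23 CPM, a ratio of 94.4-fold (95% counting interval 25.7 to 786). The iron exporter Slc40a1, the target of hepcidin, fell from 21.3 ± 0.740 to 7.52 ± 1.18 CPM. Secreted antimicrobial and acute-phase proteins rose in 10 of 14 cases, with a median of 2.60 and no fall. Saa3, a serum amyloid, was at 32.3, 27.5, 22.4 and 25.3 CPM and at 4002, 4212, 4668 and 4842 CPM (log2 fold change 7.37, SE 0.21, edgeR adjusted p = 6.1e-18), and ceruloplasmin (Cp) rose from 1.95 ± 0.797 to 241 ± 29.9 CPM (120.0-fold). Lyz2, the macrophage lysozyme, was not called (14281 ± 733 and 12664 ± 827 CPM). In the complement list 7 of 15 rose and 2 fell; Cfb rose to 33.8 ± 3.79 CPM, a ratio of 579.9-fold (95% counting interval 104 to 22948), and C3 rose from 97.0 ± 13.0 to 928 ± 72.5 CPM.

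Proteases that remodel matrix and their inhibitors rose more often than they fell. Of 27 tested, 13 rose and 4 fell (none with spike-in scaling), with a median of 0.56. The collagenase Mmp13 was at 7.06, 5.85, 8.58 and 5.62 CPM and at 1594, 1835, 1601 and 1461 CPM (log2 fold change 7.89, SE 0.17, edgeR adjusted p = 3.2e-28), and the aggrecanase Adamts4 rose from 0.174 ± 0.225 to 128 ± 14.1 CPM, a ratio of 727-fold (95% counting interval 248 to 3527). Timp1, an inhibitor of matrix metalloproteinases, rose from 1.04 ± 0.576 to 86.4 ± 14.8 CPM (80.4-fold). Adhesion molecules rose in 15 of 27 cases and fell in 1. Vcam1 and Icam1, ligands of leukocyte integrins, rose from 2.64 ± 1.89 to 95.8 ± 13.3 CPM and from 206 ± 19.5 to 1603 ± 123 CPM, and Itgb8, which activates TGF-β, rose from 0.360 ± 0.418 to 23.8 ± 2.54 CPM.

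Surface receptors moved in both directions. Of 15 chemoattractant receptors 9 rose and 4 fell. Fpr2, a receptor of formyl peptides and serum amyloid, was at 3.77, 3.60, 6.60 and 5.62 CPM and at 218, 216, 210.5 and 221 CPM (log2 fold change 5.46, SE 0.22, edgeR adjusted p = 1.1e-17), and Ccrl2 rose from 17.2 ± 2.27 to 534 ± 30.6 CPM. Cxcr4, which holds cells in the marrow, went the other way, from 57.9, 62.2, 43.6 and 51.8 CPM to 2.70, 6.41, 6.55 and 3.38 CPM (log2 fold change -3.49, SE 0.18, edgeR adjusted p = 1.1e-20), and the fractalkine receptor Cx3cr1 fell from 199 ± 31.8 to 22.1 ± 4.28 CPM. Both falls were also called with spike-in scaling. Of 31 other G protein-coupled and purine receptors 15 rose and 13 fell, 9 of them also with spike-in scaling. The adenosine receptors Adora2a and Adora3 rose from 0.389 ± 0.631 to 38.7 ± 4.21 CPM and from 1.40 ± 0.803 to 26.4 ± 7.54 CPM. Cnr2 encodes a cannabinoid receptor found on leukocytes. It had 12.2, 11.0, 11.9 and 11.2 CPM in the untreated libraries and no read in any LPS library, at least 59.0-fold lower when set at the floor of 3 reads (edgeR adjusted p = 5.6e-16). S1pr1, the receptor of sphingosine 1-phosphate that guides exit from tissues, fell from 35.6 ± 2.26 to 2.45 ± 1.26 CPM (log2 fold change -3.83, SE 0.24, edgeR adjusted p = 6.9e-18).

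Receptors for antibodies and for particles also moved. Of 20 lectins and Fc receptors 10 rose and 3 fell. Fcgr4 and Fcgr1, activating receptors for IgG, rose from 32.2 ± 5.16 to 625 ± 91.4 CPM and from 184 ± 24.3 to 1108 ± 25.2 CPM, and the inhibitory Fcgr2b rose from 18.7 ± 1.79 to 217 ± 27.0 CPM. Clec4e (Mincle), a sensor of mycobacterial cord factor, rose from 205 ± 24.9 to 1318 ± 45.1 CPM. Of 26 scavenger and uptake receptors 11 rose and 4 fell, none of the latter with spike-in scaling. Olr1 and Msr1, receptors of modified lipoproteins, rose from 0.410 ± 0.286 to 16.1 ± 1.89 CPM and from 246 ± 18.8 to 1090.0 ± 83.3 CPM, and Mertk, which takes up apoptotic cells, rose from 23.6 ± 6.48 to 126 ± 20.5 CPM. Of 30 paired receptors 14 rose and 6 fell, 1 of them also with spike-in scaling. This was Cd300lb, an activating receptor and the steepest fall of the list, from 192, 208, 197 and 245 CPM to 8.93, 6.96, 10.7 and 15.6 CPM (log2 fold change -4.31, SE 0.14, edgeR adjusted p = 3.5e-28), while its neighbours in the family changed by less, Cd300a from 147 ± 14.3 to 97.0 ± 13.2 CPM and Cd300ld from 272 ± 12.6 to 175 ± 12.6 CPM, with spike-in scaled log2 fold changes of -0.22 and -0.30 (edgeR adjusted p = 0.52 and 0.36). Slamf7, a receptor that binds itself on other cells, rose from 89.1 ± 11.0 to 777 ± 91.2 CPM.

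Factors that define the macrophage lineage fell more often than they rose. Of 29 tested, 15 fell and 9 rose, with a median of -0.63, and 12 of the falls were also called with spike-in scaling. Csf1r, the receptor of M-CSF, was at 2255, 2197, 2284 and 2348 CPM untreated and at 1224, 1412, 1374 and 1466 CPM with LPS (log2 fold change -0.73, SE 0.09, edgeR adjusted p = 2.2e-09), without overlap; with spike-in scaling it was -0.40 and not called (edgeR adjusted p = 0.18). Cebpa, a C/EBP factor of myeloid differentiation, fell from 22.8, 30.4, 32.1 and 26.05 CPM to 2.98, 1.11, 1.46 and 2.08 CPM (log2 fold change -3.86, SE 0.23, edgeR adjusted p = 8.7e-19). Pparg and the sterol receptor Nr1h3 fell from 16.1 ± 2.74 to 4.17 ± 2.23 CPM and from 27.1 ± 2.84 to 11.4 ± 2.92 CPM. Id3, an inhibitor of E proteins, fell from 154 ± 26.8 to 39.8 ± 12.2 CPM. The rises were led by Ikzf1, which encodes Ikaros (from 54.1 ± 10.1 to 673 ± 27.7 CPM), and Irf8 (from 175 ± 8.52 to 1233 ± 215 CPM). Spi1, which encodes the lineage factor PU.1, rose from 715 ± 33.6 to 928 ± 40.4 CPM.

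The steepest falls among genes at 10 CPM or more were spread over several functions. Cnr2, with no read under LPS, fell furthest by the fitted value. Plekhg3, an exchange factor for small GTPases, came next and was at 34.1, 34.2, 42.3 and 38.0 CPM in untreated and 1.35, 2.51, 0.486 and 0 CPM in LPS libraries (log2 fold change -5.11, SE 0.31, edgeR adjusted p = 1.4e-17). Sesn1, a stress-induced inhibitor of the growth kinase mTORC1, was at 63.6, 62.6, 59.4 and 62.3 CPM and 1.35, 3.62, 2.43 and 1.56 CPM (log2 fold change -4.78, SE 0.18, edgeR adjusted p = 2.3e-25). Slco4a1, an organic anion transporter, was at 207, 202, 197 and 212 CPM and 8.38, 6.13, 7.28 and 11.7 CPM (log2 fold change -4.60, SE 0.15, edgeR adjusted p = 5.8e-28). For each of these genes the lowest untreated library stood far above the highest LPS library. E2f2, a factor that drives cells into DNA replication, fell from 61.5, 48.6, 51.3 and 43.2 CPM to 1.35, 4.46, 2.67 and 0.2596 CPM (log2 fold change -4.55, SE 0.40, edgeR adjusted p = 6.8e-10). Irf2bp2, a corepressor, and Lpin1, a phosphatase of lipid synthesis, fell from 77.2 ± 8.67 to 4.38 ± 1.46 CPM and from 16.5 ± 2.44 to 0.944 ± 1.202 CPM. All genes of this paragraph were also called lower with spike-in scaling.

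The lists of FoxO targets, clock genes and lysosomal genes were drawn up as candidates for falling genes, with earlier results of these data known. The numbers of falls in them can reflect that choice and are descriptive. FoxO targets and nutrient stress regulators fell in 18 of 27 cases and rose in 4, with a median of -0.96. With spike-in scaling 12 were called lower. Besides Sesn1, the factor Foxo3 itself fell from 36.2 ± 2.41 to 6.39 ± 1.22 CPM (log2 fold change -2.50, SE 0.16, edgeR adjusted p = 3.4e-17), and Ypel3 fell from 107 ± 5.07 to 31.4 ± 2.95 CPM. Txnip, an inhibitor of glucose uptake, fell from 194 ± 21.0 to 87.5 ± 14.9 CPM. Clock genes fell in 12 of 18 cases and rose in 2, with a median of -1.36. Per1, a repressor of the clock, was at 9.65, 11.3, 18.5 and 16.3 CPM and at 0.2705, 1.67, 2.67 and 1.82 CPM (log2 fold change -3.07, SE 0.35, edgeR adjusted p = 3.1e-10). The output factor Tef fell from 55.8 ± 3.94 to 10.6 ± 2.69 CPM, and the repressor Bhlhe41 fell from 55.0 ± 7.54 to 5.06 ± 2.34 CPM. Nfil3, which acts against Tef and its relatives, rose from 7.36 ± 2.96 to 94.5 ± 15.6 CPM (log2 fold change 3.67, SE 0.20, edgeR adjusted p = 4.1e-20). With spike-in scaling 6 clock genes were called lower, the median was -0.29, and 3 members were not tested.

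Lysosomal genes as a list moved no more often than all tested genes, of which 25.3% rose and 30.2% fell. Of 42 tested, 9 rose and 12 fell, with a median of -0.07, and 5 were lower with spike-in scaling. Single members changed steeply. Tfeb, the main activator of lysosomal genes, was at 24.0, 21.6, 23.8 and 28.9 CPM and at 3.25, 1.95, 0.728 and 0.2596 CPM (log2 fold change -3.996, SE 0.34, edgeR adjusted p = 1.3e-12). Flcn and Fnip2, whose products form a complex that acts on TFEB through the Rag GTPases, fell from 25.3 ± 5.03 to 3.24 ± 1.43 CPM and from 52.9 ± 6.64 to 9.00 ± 2.01 CPM. Psap, the precursor of saposins, was at 891, 1031, 1001 and 892 CPM and at 201, 461, 287 and 476 CPM (log2 fold change -1.42, SE 0.37, edgeR adjusted p = 0.0032); its groups did not overlap, but the LPS libraries differed among themselves more than the untreated ones. The cathepsin gene Ctsc rose from 351 ± 18.9 to 1778 ± 116 CPM.

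Genes of sterol and fatty acid synthesis fell more often than they rose. Of 35 tested genes 19 fell, 13 of them at least 2-fold, and 2 rose, with a median of -0.49. With spike-in scaling of the 8 libraries 12 fell and 3 rose, with a median of -0.18, and with spike-in scaling of all 24 libraries 6 fell. Mvd, an enzyme of the mevalonate pathway, was at 40.03, 38.1, 50.2 and 48.3 CPM and at 3.52, 6.96, 9.47 and 10.1 CPM (log2 fold change -2.54, SE 0.19, edgeR adjusted p = 1.7e-15). Msmo1, which removes methyl groups from sterols, was at 204, 214, 253 and 285 CPM and at 50.3, 70.2, 72.1 and 89.8 CPM (log2 fold change -1.76, SE 0.14, edgeR adjusted p = 1.3e-11). Scd2, a fatty acid desaturase, fell from 96.7 ± 8.48 to 23.5 ± 4.87 CPM, and Stard4, a cholesterol carrier, fell from 45.4 ± 6.80 to 14.5 ± 2.19 CPM. The sensor gene Insig1 was not called (51.9 ± 8.11 CPM with LPS). Ch25h, which makes the oxysterol that blocks activation of this pathway, moved in the opposite direction, from 5.42, 9.01, 9.68 and 7.66 CPM to 408, 414, 447 and 444 CPM (log2 fold change 5.74, SE 0.18, edgeR adjusted p = 1.2e-24). Lpl, a lipase at a high level in these cells, fell from 6686 ± 283 to 4491 ± 284 CPM, and with spike-in scaling its log2 fold change was -0.23 and not called (edgeR adjusted p = 0.47).

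Genes of cell division fell to different degrees. Of 36 mitosis and cytokinesis genes 25 fell and 2 rose, with a median of -0.83, and 13 were lower with spike-in scaling. Bub1b, a checkpoint kinase, fell from 34.7 ± 2.94 to 6.30 ± 2.35 CPM (log2 fold change -2.45, SE 0.27, edgeR adjusted p = 5.4e-10), and Kif23, a motor of cytokinesis, fell from 92.2 ± 12.0 to 20.0 ± 2.95 CPM. Cdc20, which activates the anaphase-promoting complex, was at 60.5, 52.5, 52.2 and 51.3 CPM and at 7.84, 12.3, 18.7 and 10.1 CPM (log2 fold change -2.13, SE 0.22, edgeR adjusted p = 4.6e-11). The proliferation marker Mki67 was not called (128 ± 11.5 and 141 ± 6.52 CPM). Of 38 DNA replication genes 19 fell and 7 rose, with a median of -0.53, and 11 were lower with spike-in scaling. The licensing factor Cdt1 fell from 44.3 ± 4.25 to 11.7 ± 1.79 CPM, while Mcm10, which starts the replication fork, rose from 26.1 ± 6.04 to 83.4 ± 4.93 CPM. D-type cyclins moved in opposite directions. Ccnd2 was at 19.5, 25.4, 27.5 and 22.5 CPM and at 1101, 1054, 1035 and 1066 CPM (log2 fold change 5.48, SE 0.14, edgeR adjusted p = 5.3e-29), while Ccnd1 went from 129, 172, 181 and 179 CPM to 45.2, 53.2, 52.7 and 50.1 CPM (log2 fold change -1.71, SE 0.17, edgeR adjusted p = 1.6e-09). Mxd1, an antagonist of MYC, rose from 26.9 ± 2.30 to 567 ± 13.7 CPM, and its relative Mxd4 fell from 118 ± 0.710 to 20.7 ± 2.07 CPM.

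Regulators of chromatin and zinc finger proteins moved both ways. Of 38 chromatin enzymes 12 rose and 15 fell, 8 of them also with spike-in scaling, with a median of -0.03. Among all tested genes 25.3% rose and 30.2% fell. The methyltransferase Setdb2 and the DNA demethylase Tet2 rose from 3.62 ± 1.49 to 44.0 ± 2.26 CPM and from 29.9 ± 2.00 to 231 ± 10.7 CPM, and the histone demethylases Kdm2b and Kdm5b fell from 12.8 ± 3.02 to 2.28 ± 0.764 CPM and from 10.5 ± 3.69 to 2.73 ± 1.95 CPM. Of 248 tested genes named Zfp, most of which encode zinc finger proteins, 105 fell and 25 rose, with a median of -0.68. With spike-in scaling 37 fell and 29 rose, and the median was -0.23. Zfp652 and Zfp275 fell from 29.8 ± 4.39 to 4.48 ± 1.64 CPM and from 10.8 ± 1.97 to 1.55 ± 0.604 CPM, and Zfp800 and Zfp281 rose from 70.4 ± 9.41 to 623 ± 34.4 CPM and from 33.0 ± 5.88 to 207 ± 21.3 CPM.

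Housekeeping families moved by small steps. Of 78 cytosolic ribosomal protein genes 29 rose and 7 fell, none by 2-fold, with a median of 0.19; many have near-identical copies, and none of the 7 was lower with spike-in scaling. Of 38 nuclear respiratory chain genes 15 rose, none by 2-fold, and 1 fell (Cox8a, from 178 ± 8.78 to 98.7 ± 33.0 CPM; not called with spike-in scaling, log2 fold change -0.58, edgeR adjusted p = 0.056). Of 37 genes that the name pattern for proteasome subunits found, immunoproteasome subunits among them, 24 rose and 1 fell, with a median of 0.32. Psma6, a subunit of the constitutive core, rose from 192 ± 7.50 to 459 ± 47.0 CPM. Of 72 mitochondrial ribosomal proteins 15 rose and 18 fell, shares below those of all tested genes, against 17 and 0 with spike-in scaling.

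Transcripts outside the protein-coding class moved both ways, at shares that differed between annotation classes. Of 398 processed pseudogenes 16.3% rose and 8.04% fell, and of 193 genes of the class TEC 23.8% rose and 13.5% fell. Among all tested genes 25.3% rose and 30.2% fell. Of 148 long intergenic RNAs 32 rose (21.6%) and 46 fell (31.1%), with a median log2 fold change of -0.51, and of 129 antisense RNAs 24 rose and 35 fell. AW112010, annotated as a long intergenic RNA in GENCODE M21, was at 5.18, 4.05, 4.40 and 3.83 CPM and at 1024, 1059, 971 and 947 CPM (log2 fold change 7.83, SE 0.23, edgeR adjusted p = 5.7e-19). Gm28347, annotated nearby on chromosome 19, rose from 0 reads to 8.52 ± 3.09 CPM. Gm16685, annotated antisense to Il7, rose to 14.3 ± 1.58 CPM, a ratio of 244-fold (95% counting interval 43.3 to 9676); the sources used here do not state the strand setting of the counting, so reads of antisense and overlapping genes may be shared. U90926 went from 0 reads to 20.6 ± 2.42 CPM. The steepest falls at 5 CPM or more were those of 2010008C14Rik, from 8.35 ± 1.46 to 0.203 ± 0.406 CPM, a ratio of 42.7-fold (95% counting interval 14.3 to 209.5), and Gm10676, from 5.67 ± 1.63 to 0.395 ± 0.343 CPM, both of the annotation class TEC, and both were also lower with spike-in scaling. Mir155hg, the host transcript of miR-155, was named after its values were seen. It was at 0, 0.450, 0.660 and 0.255 CPM and at 32.7, 52.6, 37.4 and 28.0 CPM (log2 fold change 6.65, SE 0.43, edgeR adjusted p = 1.2e-16). The mature miRNA was not measured; its sequence is shown from RefSeq (GRCm38.p6, chr16:84714143-84714165, plus strand), with the seed, bases 2 to 8, in capitals, because the seed pairs with target mRNAs.
mmu-miR-155-5p: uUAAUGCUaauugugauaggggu

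Some of the genes that moved together were neighbours. Runs of at least 4 consecutive tested genes that all rose at least 2-fold numbered 29 and held 157 genes, and 11 runs with 45 genes fell (positions from GENCODE M21, GRCm38). The longest run held 14 genes, from Aim2 to Olfr433 on chromosome 1 between 173350879 and 174044411, with a median log2 fold change of 4.04. A run of 9 from Irgm1 to Ifi47 lay on chromosome 11 between 48861968 and 49135387. The Ifit genes formed a run of 6 on chromosome 19 between 34550694 and 34650009, with changes from 3.69 to 5.88, and the Oas genes a run of 6 on chromosome 5 between 120730333 and 120907521, with changes from 1.16 to 2.06. U90926, Naaa, Sdad1, Cxcl9, Cxcl10 and Cxcl11 formed a run on chromosome 5 between 92209893 and 92365485. Psmb9, Tap1, Psmb8 and Tap2 lay together in the class II region of chromosome 17 between 34181987 and 34216321. Among falling genes the longest run held 5, from Dnaaf2 to Klhdc2 on chromosome 12 between 69189087 and 69310687. Members of duplicated families lie side by side, share sequence and are not independent.

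The promoter windows of the responding genes differed in the motifs they held. Windows were matched for 1136 of 1411 protein-coding genes that rose at least 2-fold (80.5%), for 1205 of 1471 that fell (81.9%) and for 3598 of 4447 that were not called (80.9%). The ISRE was found in 9.51% of the windows of rising genes, 2.75% of those not called, 1.24% of those of falling genes and 3.35% of all 8567 matched windows. The NF-kB site was found in 8.01%, 4.47%, 4.23% and 5.09%. The AP-1 site (TGANTCA) stood in 8.45%, 4.59%, 4.73% and 4.86%, and the TATA box (TATAAA) in 10.8%, 6.23%, 5.89% and 6.86%. The shares of the other searched motifs, the CRE (TGACGTCA), the E-box (CACGTG), the forkhead site (TGTTTAC) and the CHR (TTTGAA), were closer to each other. The E-box stood in 9.77%, 11.4%, 10.5% and 10.7%, and the forkhead site in 3.26%, 2.06%, 2.66% and 2.50%. Among all 27025 RefSeq windows, which include those of genes not tested here, the ISRE was found in 3.49% and the NF-kB site in 4.32%. The AP-1 site was found in 7.92% of them and the TATA box in 14.2%. Beside this wider set the AP-1 share of rising genes was close and their TATA share was lower. Both strands were searched, and shares are given without a test, since neighbouring copies are not independent.

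**Figure D4:**
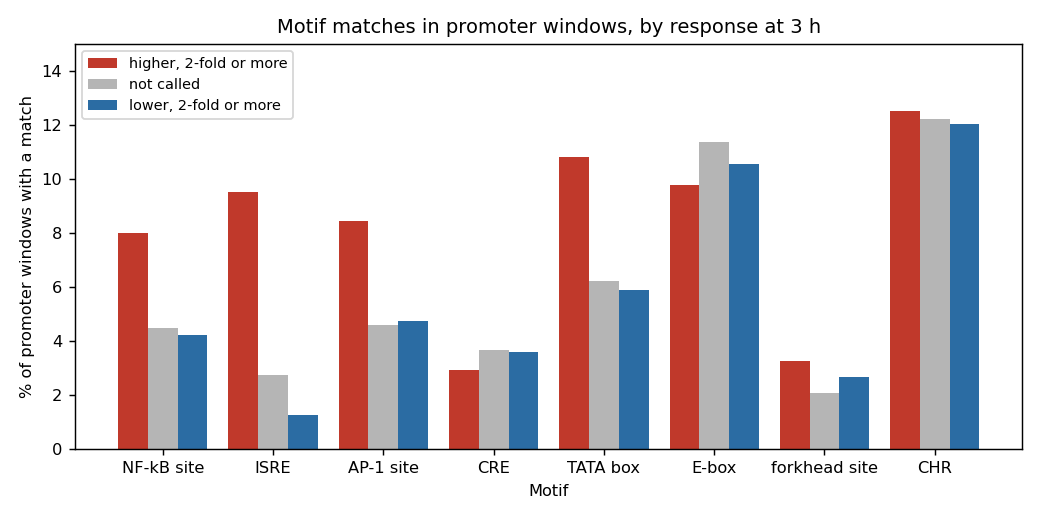
The y axis gives the percentage of promoter windows that hold at least 1 match to each of 8 motifs, for protein-coding genes that rose at least 2-fold (red, 1136 windows), were not called (grey, 3598) or fell at least 2-fold (blue, 1205). The red bar is the highest for the NF-kB site, ISRE, AP-1 site and TATA box, while the bars of the CHR are nearly level at 12.5%, 12.2% and 12.0%.

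The response at 3 h was then set beside that at 18 h, each against its own untreated cells, with a test of the difference of the log2 fold changes. The difference was called for 51.2% of genes, 3057 with a more positive response at 3 h and 2943 with a more negative one. Of the 2964 genes that rose at 3 h, 1821 had a significantly more positive response at 3 h than at 18 h and 218 a more negative one, and of the 3536 that fell at 3 h, 1889 fell further at 3 h and 285 less far. The 3 h libraries enter both the call and the difference. Untreated library 4 at 18 h stood apart, with reads for 13405 genes and 0.0134% spike-in reads. The other untreated libraries at 18 h had reads for 14443 to 15044 genes and 0.0334 to 0.0419% spike-in reads. Without library 4 the difference was called for 6143 genes, against 6000 with it. All 10 IRF and STAT genes that rose, 33 of 39 antiviral genes and 13 of 15 guanylate-binding and related GTPases had a more positive response at 3 h, against 1 antiviral gene with the reverse. Ifit1 was at 827 ± 567 CPM untreated and 2548 ± 415 CPM with LPS at 18 h (difference 3.69, SE 0.40, edgeR adjusted p = 1.8e-07), and Rsad2 at 594 ± 114 and 5926 ± 1179 CPM (difference 2.57, SE 0.22, edgeR adjusted p = 2.0e-09). Ccl3 stood at 99.2 ± 2.17 and 213 ± 10.9 CPM (difference 3.89, SE 0.12, edgeR adjusted p = 5.9e-27), while Ccl5 was at 37.7 ± 7.68 and 12946 ± 1111 CPM (difference 0.30, SE 0.15, edgeR adjusted p = 0.095, not called). For Nos2 the difference was -0.25, SE 0.68, edgeR adjusted p = 0.79, also not called.

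In some lists many rising genes had a more positive response at 18 h, while most falling genes of the same lists had a more negative one at 3 h. Among all genes that rose at 3 h, 7.35% were more positive at 18 h and 61.4% at 3 h. Among all that fell at 3 h, 53.4% were more negative at 3 h and 8.06% at 18 h. Of 13 glycolytic genes that rose at 3 h, 7 were more positive at 18 h and 4 at 3 h, while 8 of the 9 that fell were more negative at 3 h. Of 11 rising genes of the NRF2 list, 8 were more positive at 18 h and 2 at 3 h, and 10 of the 12 that fell were more negative at 3 h. Of 24 rising proteasome genes 12 were more positive at 18 h and 6 at 3 h, and the 1 that fell was more negative at 3 h. Saa3 was at 40.4 ± 10.7 CPM untreated and 55181 ± 5377 CPM with LPS at 18 h (difference -3.06, SE 0.25, edgeR adjusted p = 1.6e-09), and Acod1 at 26.05 ± 7.50 and 4531 ± 491 CPM (difference -2.26, SE 0.17, edgeR adjusted p = 1.6e-12). By contrast 24 of the 25 mitosis genes that fell had a more negative response at 18 h; Cdc20 was at 26.1 ± 6.64 and 0.412 ± 0.249 CPM there (difference 3.79, SE 0.52, edgeR adjusted p = 9.9e-08), and Mki67, not called at 3 h, was at 67.4 ± 11.9 and 12.3 ± 3.69 CPM (difference 2.61, SE 0.19, edgeR adjusted p = 3.3e-15). In the other direction, 12 of 18 FoxO and nutrient genes and 13 of 15 chromatin enzymes that fell had a more negative response at 3 h. The share among all genes that fell was 53.4%. Foxo3 was at 66.1 ± 3.45 and 51.4 ± 6.26 CPM at 18 h (difference -2.14, SE 0.21, edgeR adjusted p = 9.6e-12), Per1 at 13.0 ± 4.33 and 22.6 ± 4.97 CPM (difference -3.86, SE 0.42, edgeR adjusted p = 2.5e-10), and Lhfpl2, which fell from 115 ± 11.3 to 5.03 ± 3.03 CPM at 3 h, at 125 ± 17.4 and 200.2 ± 32.8 CPM (difference -5.20, SE 0.27, edgeR adjusted p = 2.4e-15).

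The widest differences between the times belonged to genes at a low level in at least 1 of the groups compared. Edn1 was at 0.360 ± 0.550 CPM untreated and 3.45 ± 0.808 CPM with LPS at 18 h (difference 9.46, SE 1.18, edgeR adjusted p = 8.7e-09), and Adamts4 at 0.245 ± 0.489 and 0.572 ± 0.284 CPM (difference 8.35, SE 1.34, edgeR adjusted p = 1.8e-06). Kalrn and the T cell receptor chain gene Cd247, both at 0 reads in untreated cells at 3 h, were at 0.118 ± 0.136 and 0.337 ± 0.375 CPM with LPS at 18 h. Gprc5c, an orphan receptor, rose from 2.55 ± 1.78 to 18.8 ± 4.71 CPM at 3 h and went from 22.4 ± 4.78 CPM to 0 at 18 h. In the other direction, Arg1 had no read with LPS at 3 h and 36.6 ± 10.7 CPM with LPS at 18 h. The scavenger receptor Marco was not called at 3 h (6.19 ± 1.55 and 10.1 ± 2.76 CPM) and was at 1.54 ± 0.415 and 280.0 ± 116 CPM at 18 h (difference -6.75, SE 0.66, edgeR adjusted p = 3.4e-08). Slamf6, Dnmt3l and Cnr2 stood at 41.0 ± 10.6, 10.6 ± 3.00 and 9.54 ± 2.35 CPM with LPS at 18 h. Fitted differences of genes with 0 reads in a group depend on the prior count.

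**Figure D5:**
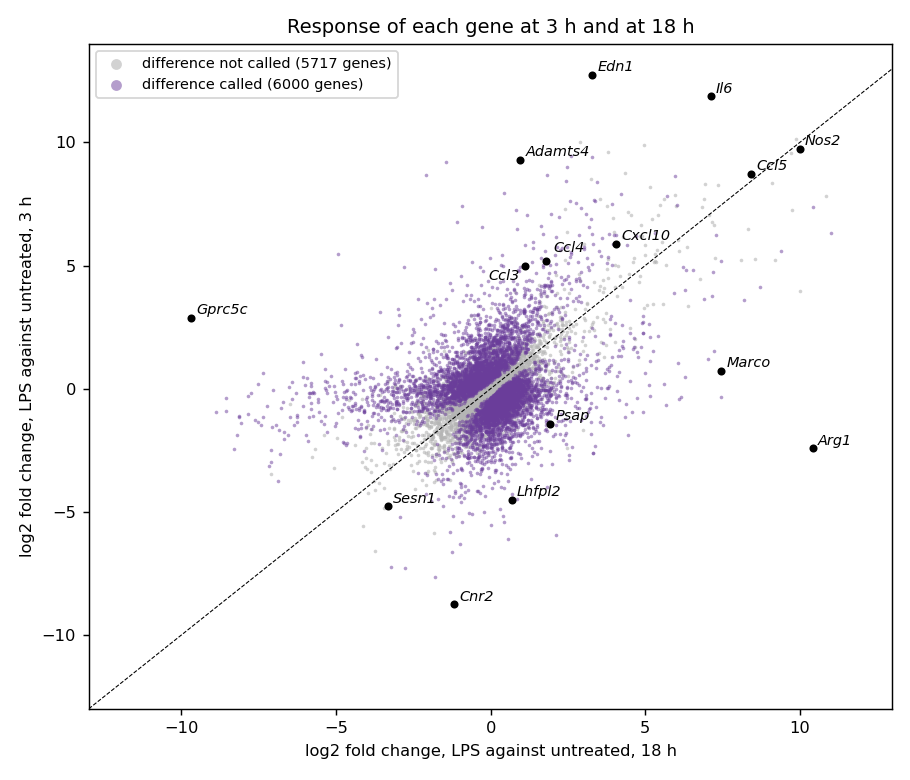
Each point is a tested gene, with the log2 fold change of LPS against untreated at 18 h on the x axis and at 3 h on the y axis; the dashed line marks equal responses, purple genes (6000) had a called difference and grey genes (5717) had none. Edn1 and Adamts4 lie high above the line, Nos2 and Ccl5 near it, and Arg1, Marco and Lhfpl2 far below it.

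Marker genes were read to check the cell type. The 12 macrophage markers were all expressed, with summed levels of 22210 to 23546 CPM in untreated and 21751 to 23318 CPM in LPS libraries; 6 rose and 3 fell. Summed markers of T cells went from 4.71-6.13 to 20.1-40.1 CPM. In untreated cells most of the sum was Cd4, which stood at 4.41 CPM there and at 2.66 CPM with LPS. With LPS most of the sum was Lck, a kinase of T cell receptor signalling, which rose from 0.596 ± 0.284 to 26.7 ± 8.63 CPM. Cd3e and Cd3g had no read in either group. Summed markers of NK cells went from 0.471-2.20 to 15.1-22.8 CPM. With LPS most of this sum was Klrk1, which encodes the receptor NKG2D and rose from 0.457 ± 0.244 to 18.9 ± 3.85 CPM. Ncr1, Eomes, Gzma, Gzmb and Prf1 had no read. Of the neutrophil markers S100a8 rose from 2.29 ± 0.354 to 11.1 ± 4.64 CPM and Ly6g, Elane and Prtn3 had no read. Of the endothelial markers Kdr rose from 16.7 ± 2.66 to 65.6 ± 13.0 CPM and Vwf fell from 16.7 ± 2.14 to 9.15 ± 2.27 CPM (spike-in scaled log2 fold change -0.53, not called), with Tek, Emcn and Erg at no read. Dendritic cell markers summed to at most 5.57 CPM and erythroid markers to at most 0.557 CPM in any library. The part of these cells or transcripts in the other results was not tested.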

How the data were processed

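RNA of 24 libraries (6 groups of 4) was read with 3′ mRNA sequencing (QuantSeq FWD), from 150 ng of RNA and with 15 PCR cycles, per the labels' protocols. The submitters' processing notes name cutadapt 1.18, STAR 2.6.1a, featureCounts 1.6.4, FastQC, Subread, DESeq2 and the build GRCm38, with no role or order; the sources used here do not state the strand setting. The main table holds the counts per gene that the authors deposited for 55401 genes, with 7 rRNA entries (0.297 to 0.457% of the reads) and 114 spike-in RNAs (92 ERCC and 22 SIRV) that were kept out of library sizes and tests. A second table holds a signal that the authors made by dividing read numbers by a size factor, as its values show; multiplied back, it differed from the main table for 7689 genes and served only as an alternative.

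Counts of all 24 libraries entered 1 fit with a mean per group in edgeR 4.0.16 (R 4.3.3), with TMM scaling, the filterByExpr minimum of 10 reads (11717 genes), the quasi-likelihood F test and Benjamini-Hochberg adjustment. The test of a difference between the times is a contrast of the same fit. Alternatives were DESeq2 size factors and the DESeq2 1.42.0 Wald test, spike-in scaling, no filter and a stricter one (1 CPM in 8 libraries), the second table, a replicate block, only the 8 libraries, and leaving out each library of the groups compared (and untreated library 4 at 18 h). Folds of genes with 0 reads in a group are bounds against 3 reads over the group, and those with 1 to 3 reads carry exact counting intervals (95%), which cover counting error only. Total reads per library (3334182 to 5465764) set the precision of low levels. On simulated counts with known changes for this comparison (11500 genes) the fit called 62.7% of genes changed 1.5-fold, 86.6% of those changed 2-fold and 98.5% of those changed 4-fold. Of its calls 8.33% were unchanged genes. The simulation changed 67, 67 and 66 genes by these folds and left all others unchanged, while 6500 genes were called in the data. These rates therefore need not hold for the data.

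Gene lists, members and tests were chosen with earlier results of these data known. The rule for named genes took the 15 steepest called rises and falls at 10 CPM or more without overlap, the 4 largest changes of each of the 49 lists and the 11 marker lists, 46 index genes, the 10 largest gains and losses in CPM, the 5 steepest noncoding genes each way at 5 CPM or more, the 5 widest time differences each way and the members of runs; some of those it took are not printed. Gene positions came from GENCODE M21, where 55141 genes were found.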

Additional observations from a re-analysis of the deposited data

Results flagged for a closer look

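The difference between the responses at 3 h and 18 h was widest, each way, for 10 genes, by the test of the difference itself. It was 12.59 on the log2 scale for Gprc5c, 10.78 for Cd247, 10.67 for Kalrn, 9.46 for Edn1 and 8.35 for Adamts4, which were more positive at 3 h. It was -12.83 for Arg1, -7.57 for Cnr2, -6.75 for Marco, -6.50 for Slamf6 and -6.46 for Dnmt3l, which were more positive at 18 h. Most of these genes had 0 to 3 reads in a group, so that the fitted size depends on the prior count.

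Single libraries stood apart from the other 3 of their group for 22 of the 404 gene and group pairs at 10 CPM or more that could be examined, by Dixon's criterion for 4 values at the 95% level; chance gives about 1 in 20. The pairs fell on all 8 libraries, from 1 to 5 in each, and for none of these genes did the untreated and LPS libraries overlap. Untreated library 1 stood apart for Ccnd1 at 129 CPM (lowest, the others 172 to 181), Cdc20 at 60.5 CPM (highest, the others 51.3 to 52.5), Cxcl10 at 241 CPM (lowest, the others 285 to 294), Lyz2 at 15374 CPM (highest, the others 13817 to 13999) and Stat6 at 92.8 CPM (lowest, the others 112 to 115). Untreated library 2 stood apart for Mxd4 at 117 CPM (lowest, the others 118 to 119) and Zfp275 at 7.88 CPM (lowest, the others 11.7 to 12.0). Untreated library 3 stood apart for Irgm1 at 33.2 CPM (lowest, the others 45.0 to 47.2). Untreated library 4 stood apart for Gbp3 at 23.7 CPM (highest, the others 15.3 to 15.8), Gbp5 at 12.8 CPM (lowest, the others 17.0 to 17.8), Icam1 at 235 CPM (highest, the others 193 to 199.6) and Slamf7 at 72.8 CPM (lowest, the others 93.2 to 96.4). LPS library 1 stood apart for Slc7a2 at 76.0 CPM (lowest, the others 109 to 111) and Tap2 at 335 CPM (highest, the others 263 to 275). LPS library 2 stood apart for Ifit3 at 2404 CPM (highest, the others 2172 to 2180.2). LPS library 3 stood apart for Irak2 at 318 CPM (highest, the others 267 to 274) and Irf3 at 29.6 CPM (lowest, the others 37.6 to 39.2). LPS library 4 stood apart for Ifit1bl1 at 954 CPM (lowest, the others 1115 to 1135), Iigp1 at 1856 CPM (lowest, the others 2115 to 2138), Kalrn at 10.6 CPM (lowest, the others 17.3 to 18.7), Psmb9 at 389 CPM (highest, the others 351 to 355) and Slc7a11 at 46.2 CPM (highest, the others 29.9 to 30.9).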

How the results depend on the processing

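The number of genes called higher and the number with a time difference stayed within 1.5 times of their values under every alternative run, and so did the number called lower except with spike-in scaling. There 955 genes were lower with all 24 libraries, 1187 with the 8 libraries alone and 1388 with all but untreated library 4 at 18 h (chosen after seeing the data), against 3536. Leaving out 1 library of the groups compared, or untreated library 4 at 18 h, gave 2806 to 3145 genes higher, 3280 to 3772 lower, 5779 to 6143 with a time difference and a difference in spike-in share of -0.0262 to -0.0207 percentage points. Replicate numbers are shared between the groups, but same-numbered libraries did not deviate together (correlations -0.0255 to 0.0575) and only libraries 1 and 2 of the LPS group correlated best with their own number; with a replicate block 2994 genes were higher, 3569 lower and 6035 differed between the times, and in the 8 libraries alone 3285 were higher and 3241 lower. DESeq2's Wald test called 3213 higher and 3307 lower. Of the 264 tested genes named, 263 kept their direction and call with each of the 8 libraries at 3 h, or untreated library 4 at 18 h, left out, and Tlr4 did so for all but LPS library 3; no called gene reversed under any alternative run. With spike-in scaling 16 of 264 (all libraries), 12 of 259 (the 8 libraries) and 11 of 264 (without untreated library 4 at 18 h) lost their call. Under the other alternatives none lost it and at most 3 gained one, and the stricter filter tested 254. Differences under about 1.5-fold, and levels of a few CPM, are near the limit of this depth.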

Other observations

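Genes that carry cholesterol out of the cell did not move as one. Of 19 tested members of the list of the LXR receptors and cholesterol efflux, 8 fell, 2 of them also with spike-in scaling, and 4 rose. The shares among all tested genes were 30.2% lower and 25.3% higher. Mylip, which encodes an LXR-induced ubiquitin ligase, fell from 15.5 ± 2.15 to 5.62 ± 2.22 CPM (log2 fold change -1.46, SE 0.22, edgeR adjusted p = 4.2e-07), and it was also lower with spike-in scaling (log2 fold change -1.12, edgeR adjusted p = 0.0058). Abca1, the pump that loads cholesterol onto apolipoprotein A-I, rose from 41.4 ± 1.42 to 67.6 ± 2.88 CPM (log2 fold change 0.71, SE 0.14, edgeR adjusted p = 5.9e-05), while its partner Abcg1 fell from 126 ± 21.5 to 89.2 ± 12.0 CPM and was not called with spike-in scaling (-0.14, edgeR adjusted p = 0.69).

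The untreated cells themselves differed between the times for several inflammatory genes. Tnf was at 175 ± 17.8 CPM in untreated cells at 3 h and at 14.8 ± 1.53 CPM in untreated cells at 18 h. Cxcl2 was at 158 ± 22.4 and 7.24 ± 1.40 CPM, Acod1 at 267 ± 9.79 and 26.05 ± 7.50 CPM, Egr1 at 24.5 ± 3.73 and 4.16 ± 1.34 CPM, and Nfkbia at 1333 ± 95.7 and 417 ± 19.9 CPM. Atf3 and Zfp36 were closer, at 271 ± 6.48 and 258 ± 20.6 CPM and at 163 ± 22.5 and 137 ± 9.01 CPM. These pairs are values chosen after they were seen and were not tested, and the control of each time sets the fold change that LPS is read against.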
